A study of Homo sapiens with 6 samples.

Results

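The loci described here are 3586 bright transcript clusters to which the array annotation gives no gene symbol. They were chosen from the deposited expression values as clusters with an empty symbol and a mean of the 3 DMSO arrays of at least 8 on the log2 scale. They made up 8.65% of the 41465 clusters without a symbol in a table of 65535 clusters, and 38.5% of the 9326 clusters that reached this level. A cluster without a symbol is unnamed here, which does not mean that it lies outside a gene, and none is given a name or a function below. The level in the DMSO arrays chose the members, so their brightness is a description. It is also one side of the comparison with the drug, and counts with members chosen in other ways are given beside the main ones.

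The study asked what re-activation of the retinoblastoma protein pRB does to transcription in PC3-ML, a subline of PC-3, a line of human prostate cancer cells. One group of 3 arrays measured cells given the DMSO vehicle, and the other measured cells given 500 nM PD 0332991 in DMSO, both for 24 h. All cells were the parental PC3-ML line, a single cell line, kept in DMEM with fetal bovine serum. No label tells whether the samples of one group were grown as separate cultures. The p-values below therefore rest on the spread among these arrays alone, and that spread may be technical.

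PD 0332991 (palbociclib) blocks CDK4 and CDK6, the cyclin D-bound kinases that phosphorylate pRB, and unphosphorylated pRB holds back the E2F transcription factors that drive genes of DNA replication and cell division. A transcript cluster is the array's unit for a transcribed locus and is read by a group of probes along it. Loci that annotations leave without a symbol can include long noncoding RNAs, short structured RNAs, tRNA genes and other repeated families, and near-identical copies of a repeated sequence cannot be told apart by probes.

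The sequences of the clusters' probes and the genome positions of the clusters were not used here, so each cluster is given by its identifier, whose first digits name its chromosome. The median of all clusters was between 4.48 and 4.56 on the 6 arrays, on a scale that ran from 2.04 to 19.93, and the median of the members was between 9.95 and 10.11. The keratins of epithelial cells were bright in the DMSO arrays, with mean levels of 11.31 for KRT8, 11.20 for KRT18 and 12.23 for KRT19. EPCAM (6.83) and CDH1 (6.49), further epithelial markers, were lower but above the median of all clusters. The leukocyte markers PTPRC, CD3E and CD14, the endothelial markers PECAM1, VWF and CDH5 and the erythroid HBB had DMSO means of 3.81 to 4.44, and the prostate luminal markers KLK3 and TMPRSS2 had 4.38 and 5.08. PD 0332991 replicate 3 and DMSO replicate 3 stood apart for some members. Of 220 members with an SD over 0.5 among the PD 0332991 arrays, replicate 3 was the farthest from the others in 174 and lay below them in every one of these. Of 82 members with such an SD among the DMSO arrays, replicate 3 was the farthest in 55, and lay below the others in 47. None of these wide members passed the test.

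Most bright unnamed clusters were close to their DMSO level after PD 0332991. Those that changed fell more often than they rose, in a share close to that over all clusters. With limma and Benjamini-Hochberg adjustment over all 65535 clusters, 262 of the 3586 members (7.31%) had an adjusted p under 0.05, against 2.26% of all clusters. Of these, 167 fell, against 1.43% of all clusters, and 95 rose, against 0.835%. The falls took in 4.66% of the members and the rises 2.65%. Falls were 63.7% of the members' calls and 63.1% of the calls over all clusters. A total of 947 members had an unadjusted p under 0.05. Of 5357 clusters with 1 gene symbol that also reached a DMSO mean of 8, 708 were called (13.2%), 481 lower (67.9% of these calls) and 227 higher. The median DMSO mean of the 5357 was 9.72, against 10.05 for the members. Among the 37879 unnamed clusters below the level, 155 were called (0.409%). The groups did not overlap in 1131 members (31.5%), against 19.6% of all clusters and 52.6% of the bright clusters with 1 symbol.

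The median change of the members, PD 0332991 minus DMSO, was −0.01 on the log2 scale, and the middle 50% of members lay between −0.16 and 0.12. The same median was 0.02 over all clusters and −0.01 over the bright clusters with 1 symbol. The members called lower had a median change of −0.62 and those called higher one of 0.57. Changes of at least 2-fold among the calls were 39 falls and 7 rises. The bright clusters with 1 symbol had 161 falls and 7 rises of that size. The replicate spread was wider among the members, with a median SD of 0.110 in the DMSO arrays and 0.116 in the PD 0332991 arrays, than among the bright clusters with 1 symbol, where it was 0.0602 and 0.0625. Its part in the lower share of calls was not tested.

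Each array left out lowered the number of calls by more than 1.5 times. The members were chosen anew where a DMSO array was left out. The number was 111 without DMSO replicate 1, 93 without DMSO replicate 2 and 112 without DMSO replicate 3. It was 107 without PD 0332991 replicate 1, 114 without PD 0332991 replicate 2 and 135 without PD 0332991 replicate 3. More of the calls were falls than rises in each of these 6 fits. Without PD 0332991 replicate 3, 3.76% of the members, 1.16% of all clusters and 7.32% of the bright clusters with 1 symbol were called. Choosing members by the mean of all 6 arrays gave 159 falls and 102 rises among 3573 clusters, and choosing them by the mean of the PD 0332991 arrays gave 144 falls and 108 rises among 3528. Of the members, 166 had a PD 0332991 mean below 8, and 108 other unnamed clusters reached 8 in that group.

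**Figure D1:**
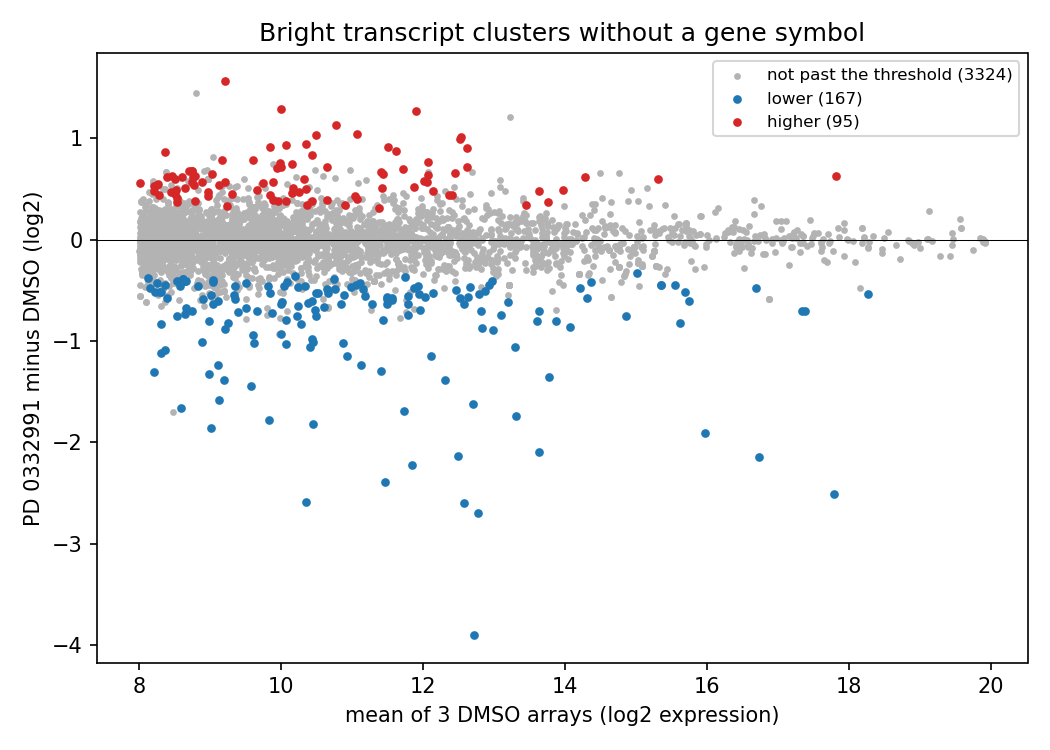
Change in each of the 3586 members (PD 0332991 minus DMSO, log2) against its mean over the 3 DMSO arrays (log2 expression); each point is a cluster, blue where it was called lower (167), red where higher (95) and grey otherwise. The falls reach −3.90 while the rises end at 1.57, and most points lie near 0 at every level.

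Calls were spread over most of the range of brightness. The members were most numerous just above the level, with 1036 of them (28.9%) between 8 and 9, of which 35 fell and 28 rose. Between 12 and 14 there were 486 members, of which 30 fell and 16 rose (9.47%). Between 16 and 18, 5 of 113 fell and 1 rose, and above 18, 1 of 68 fell and none rose. At the edge of the selection, TC01005816.hg.1, TC10001880.hg.1 and TC17001268.hg.1 lay just inside. TC02001958.hg.1, TC16000732.hg.1 and TC02001028.hg.1 lay just outside. The DMSO means of all 6 were within 0.01 of the level, and none of them was called.

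The deepest fall belonged to TC17002618.hg.1 on chromosome 17. Its levels were 12.75, 12.82 and 12.58 in the DMSO arrays and 9.09, 8.64 and 8.72 in the PD 0332991 arrays. All PD 0332991 arrays lay far below all DMSO arrays, a change of −3.90 ± 0.13 (SE, n = 3 per group), 14.95-fold lower with a limma adjusted p of 7.13e-05. One gene with a single symbol fell as far on that chromosome. This was TOP2A, DNA topoisomerase II alpha, which acts on DNA during replication and mitosis. TOP2A went from 12.76, 12.76 and 12.96 to 8.83, 8.67 and 8.99, a 15.99-fold fall. The position of TC17002618.hg.1 along the chromosome is not known here, and the genes set beside members in this way were picked after their values were seen.

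On chromosome 6, TC06003537.hg.1 had levels of 12.88, 12.71 and 12.73 in the DMSO arrays and of 10.37, 9.80 and 10.05 after PD 0332991. Its fall of 2.70 ± 0.15 (SE, n = 3 per group; adjusted p = 0.000338) was 6.503-fold. TC06002644.hg.1, on the same chromosome, was among the brightest members that changed. It went from 17.64, 17.84 and 17.89 to 15.38, 15.20 and 15.27, a 5.69-fold fall with an adjusted p of 8.18e-05. In both clusters the groups were separated by more than 2 log2 units. The clusters with 1 symbol that fell as far on chromosome 6 as TC06003537.hg.1 were 4 in number and all histone genes. They were the linker histone gene H1-4 and the H2B genes H2BC11, H2BC14 and H2BC17. Chromosome 6 holds the main cluster of histone genes, whose products package newly made DNA.

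TC05002418.hg.1 on chromosome 5 had 12.49, 12.47 and 12.76 in the DMSO arrays and 9.85, 9.93 and 10.15 after PD 0332991, a 6.06-fold fall with an adjusted p of 0.000144. The groups did not overlap. Clusters with 1 symbol that fell as far there were KIF20A, a kinesin of late mitosis, and HMMR, a spindle protein and hyaluronan receptor. Their changes were 16.05-fold for KIF20A and 7.74-fold for HMMR, both lower. TC04002654.hg.1 on chromosome 4 went from 11.74, 11.16 and 11.46 to 8.92, 8.997 and 9.28 (5.23-fold lower, adjusted p = 0.00106). NCAPG, a condensin subunit, CCNA2, cyclin A2, and HMGB2, a chromatin protein, fell as far on chromosome 4. CCNA2 fell by 3.43.

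Chromosome 1 held 3 of the 12 deepest falls. TC01006091.hg.1 had levels of 10.22, 10.35 and 10.47 in the DMSO arrays and of 7.47, 7.88 and 7.93 after PD 0332991, a 6.003-fold fall (adjusted p = 0.000333). TC01006023.hg.1 fell 4.66-fold, from 11.92, 12.001 and 11.59 to 9.55, 9.61 and 9.68. TC01005765.hg.1 fell 4.41-fold, from 12.38, 12.56 and 12.53 to 10.45, 10.25 and 10.35. In each of the 3, every PD 0332991 array was below every DMSO array. There were 5 clusters with 1 symbol on chromosome 1 that fell as far as TC01006091.hg.1. They were the kinesins KIF2C and KIF14, the kinetochore protein CENPF, the checkpoint adaptor CLSPN and the histone gene H2AC21.

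TC20001661.hg.1 on chromosome 20 had nearly equal levels of 13.63, 13.61 and 13.64 in the DMSO arrays and 11.64, 11.39 and 11.57 after PD 0332991, a 4.27-fold fall (adjusted p = 8.77e-05). TPX2, a spindle assembly factor, FAM83D, a spindle protein, and MYBL2, a transcription factor of dividing cells, fell as far on that chromosome. TC03002788.hg.1 on chromosome 3 went from 9.26, 8.85 and 8.90 to 7.02, 7.17 and 7.24, a 3.63-fold fall (adjusted p = 0.000888). No cluster with 1 symbol on chromosome 3 fell as far.

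The small chromosome 21 carried a pair of the 12 deepest falls, both bright. TC21000762.hg.1 had 16.75, 16.70 and 16.73 in the DMSO arrays and 14.72, 14.55 and 14.49 after PD 0332991, a change of −2.14 ± 0.08 (SE, n = 3 per group) with an adjusted p of 7.76e-05. TC21000211.hg.1 went from 15.99, 15.92 and 15.99 to 14.24, 14.08 and 13.84, a change of −1.91 ± 0.11 (SE, n = 3 per group) with an adjusted p of 0.000384. Each DMSO array was above each PD 0332991 array by more than 1 log2 unit in both. No cluster with 1 symbol on chromosome 21 fell as far as either. The furthest was DONSON, a protein of the replication fork, with a change of −1.70. By its identifier number TC21000211.hg.1 stands between LINC00319, a long noncoding RNA gene, with a change of −0.05, and RRP1B, a nucleolar protein gene, with −0.24, neither of which passed the test (adjusted p of 0.867 and 0.130).

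Rises were smaller. TC21000739.hg.1 on chromosome 21 rose most, from 9.46, 9.27 and 8.90 in the DMSO arrays to 10.51, 11.18 and 10.65. The groups were apart, but each spread over more than 0.5, and the change was 1.57 ± 0.21 (SE, n = 3 per group; 2.97-fold, adjusted p = 0.0185). Its adjusted p was between 0.0507 and 0.0846 when any DMSO array or PD 0332991 replicate 3 was left out. TC20000092.hg.1 on chromosome 20 was steadier, with 11.94, 11.97 and 11.79 in the DMSO arrays and 13.16, 13.19 and 13.17 after PD 0332991. Its rise of 1.27 ± 0.07 (SE, n = 3 per group; 2.41-fold, adjusted p = 0.000329) exceeded that of every cluster with 1 symbol on chromosome 20. The largest of those was ID1, an inhibitor of helix-loop-helix transcription factors, at 0.81. By identifier number TC20000092.hg.1 stands between BTBD3 and NDUFAF5, a mitochondrial complex I assembly factor, and neither of these was called. BTBD3 and NDUFAF5 span 1931 kb, with 20 RefSeq genes between them.

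TC05001913.hg.1 on chromosome 5 rose 2.45-fold, from 10.09, 10.17 and 9.71 to 11.15, 11.32 and 11.37 (adjusted p = 0.00659). The cluster with 1 symbol before it by identifier number, C5orf46, rose by 0.67 (adjusted p = 0.0117), and the one after it, the microRNA gene MIR584, was not called. C5orf46 and MIR584 span 1177 kb, with 18 RefSeq genes between them. TC04001986.hg.1 on chromosome 4 rose 2.20-fold, from 10.80, 10.71 and 10.80 to 11.87, 11.82 and 12.02 (adjusted p = 0.000734). In both clusters the groups did not overlap, and no cluster with 1 symbol on their chromosomes rose as far.

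TC11002381.hg.1 and TC11003389.hg.1 on chromosome 11 had nearly the same levels on every array. The first had 12.58, 12.54 and 12.49 in the DMSO arrays and 13.61, 13.64 and 13.41 after PD 0332991. The second had 12.60, 12.54 and 12.44, and then 13.64, 13.57 and 13.36. They differed by a root mean square of 0.0422 over the 6 arrays, and among the bright unnamed clusters each was the nearest to the other in level. Their rises were 2.02-fold (adjusted p = 0.00185) and 2.00-fold (adjusted p = 0.00367). TC11002381.hg.1 stands between MIR100HG and MIR125B1, the first a host gene for microRNAs and the second a microRNA gene, whose changes of 0.31 and 0.18 did not pass the test. Whether both clusters read the same transcript was not tested. MMP13, a collagenase gene, rose as far on chromosome 11, by 1.11.

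TC07001970.hg.1 on chromosome 7 went from 11.10, 11.18 and 10.92 to 12.33, 11.93 and 12.06, a 2.06-fold rise (adjusted p = 0.0101, and 0.0528 without DMSO replicate 1). It stands by number between FAM131B, which rose by 0.41 (adjusted p = 0.0332), and EPHA1, an ephrin receptor gene that was not called. TC0X001720.hg.1 on the X chromosome rose 2.04-fold, from 10.17, 10.80 and 10.48 to 11.57, 11.62 and 11.35 (adjusted p = 0.0334). Its DMSO arrays were spread by more than 0.6, and it lost its call in 5 of the 6 fits that left out an array, with adjusted p up to 0.133. The other 4 of the 12 largest rises were TC09002776.hg.1, TC09001140.hg.1, TC07002499.hg.1 and TC14001732.hg.1, which rose by 0.92 to 0.94. The adjusted p of TC09001140.hg.1 was 0.0652 without DMSO replicate 1 and 0.0661 without DMSO replicate 3. That of TC07002499.hg.1 was between 0.0536 and 0.0655 without DMSO replicate 1, PD 0332991 replicate 1 or PD 0332991 replicate 3. On chromosome 9 no cluster with 1 symbol rose as far as the first and second of these, the highest being HSPA5, a chaperone of the endoplasmic reticulum, at 0.70.

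**Figure D2:**
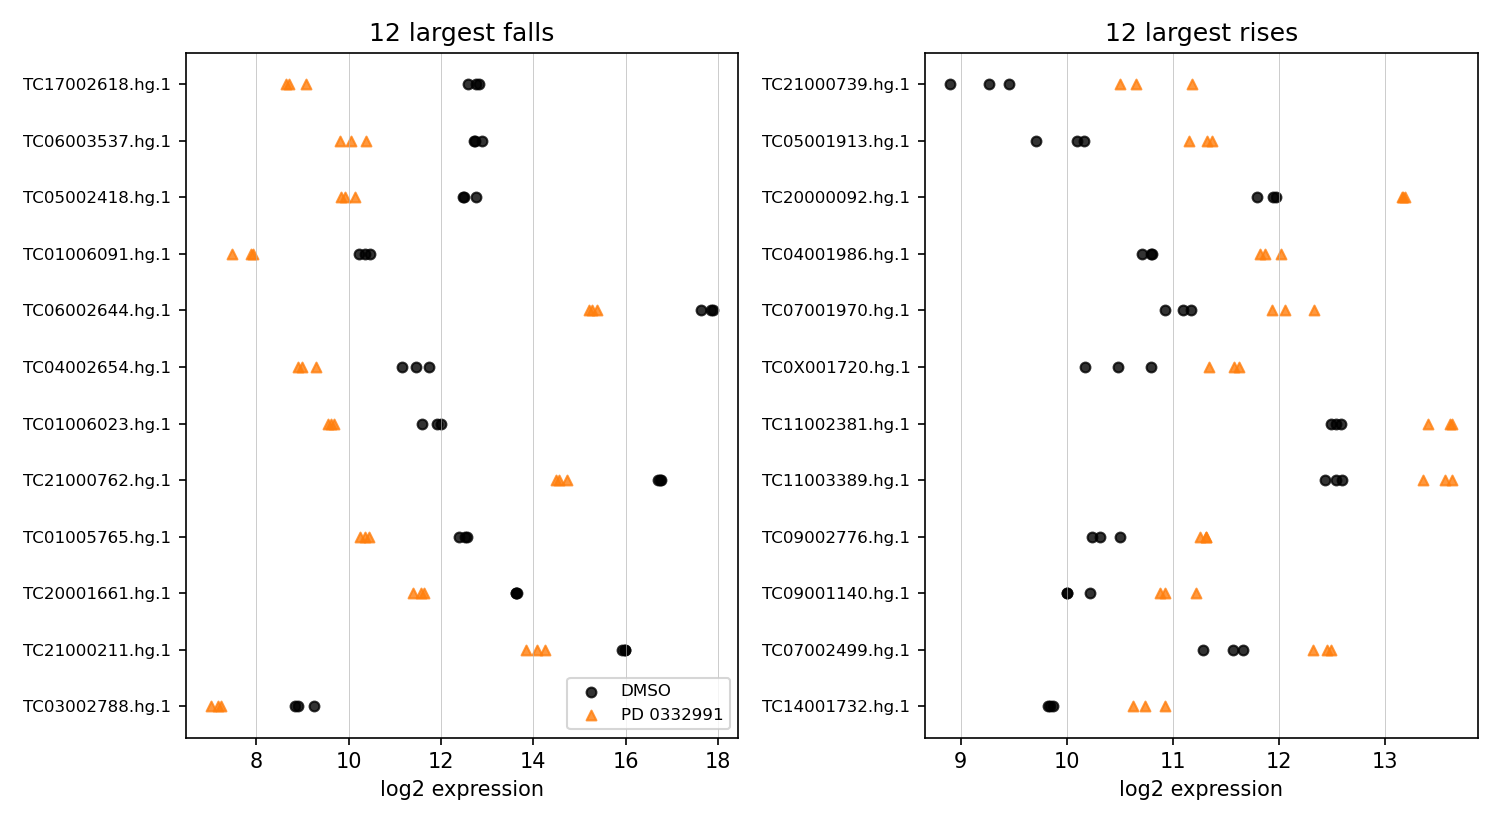
Log2 expression on each array of the 12 members with the largest falls (left) and the 12 with the largest rises (right), with DMSO arrays as black circles and PD 0332991 arrays as orange triangles. The groups are apart in all 24, as the choice of clusters required, by far more in TC17002618.hg.1 (12.72 to 8.81 in the group means) than in TC14001732.hg.1 (9.85 to 10.76).

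The identifiers number the clusters of each chromosome in a set order. Along 48 runs of identifiers, a pair on each of 24 chromosomes, the clusters with 1 symbol followed the order of the genes in RefSeq, with Spearman's rho of at least 0.9955 over the genes of a run, given as a description. Unnamed clusters stood among the named ones in these runs, and 1794 members were of this kind. After the runs, the longest stretch of numbers without a symbol, or else all numbers past the last symbol, was taken as a block. By this definition no cluster of a block has a symbol. The blocks of the 24 chromosomes held 22427 clusters, and 1742 members came from them. Another 23 members came from the numbers after the blocks, 5 from unplaced contigs and 22 from the mitochondrial genome. Both kinds of position held similar shares of bright clusters, with 9.54% of the unnamed clusters among named genes and 7.77% of those in the blocks.

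Calls came mostly from the separately numbered blocks. There, 191 of 1742 members were called (11%), 120 lower and 71 higher. Among the named genes, 69 of 1794 members were called (3.85%), 47 lower and 22 higher. Of the 12 deepest falls, 11 came from the blocks, the exception being TC21000211.hg.1, and the blocks held 31 of the 39 falls of at least 2-fold. The blocks also had the tighter replicates, with a median SD of 0.0943 in the DMSO arrays and 0.0934 in the PD 0332991 arrays, against 0.137 and 0.167 among named genes. The part of this spread in the difference was not tested. Without PD 0332991 replicate 3, 98 members of the blocks (5.63%) and 35 of those among named genes (1.95%) were called.

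The median level of the members in the blocks hardly moved from array to array. Measured from each cluster's DMSO mean, it lay between −0.01 and 0.01 on the DMSO arrays and between −0.01 and 0.02 on the PD 0332991 arrays. Among named genes it was 0.06, −0.01 and −0.04 on the DMSO arrays and 0.03, 0.04 and −0.18 on the PD 0332991 arrays. The low value was that of PD 0332991 replicate 3. The median change of the members among named genes was −0.02 with this array and 0.04 without it. The direction of that small median therefore rested on 1 array.

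For 1491 members among named genes, the nearest named clusters on both sides in the same run were at most 2000 kb apart in RefSeq, so that the genes annotated between them could be listed. Of the 57 called members of this kind, 7 (12.3%) had a called neighbour on at least one side, close to the 9.62% (138) of the 1434 members that were not called. A called neighbour that moved in the same direction was found for 5 of the called members (8.77%) and for 66 of the others (4.60%). The difference in these shares rests on few members and was not tested. These 7, named because of their values, include TC05001913.hg.1 and TC07001970.hg.1 above. A neighbour is the nearest named cluster by number, and other genes can lie between. Where strand was known, each run held genes of almost only 1 strand. Genes of the other strand were thus not taken as neighbours. The genes listed between the neighbours were taken by position only and can be of either strand.

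TC06000151.hg.1 stands by number after GMNN, the gene of geminin, an inhibitor of replication licensing. It went from 10.11, 9.81 and 10.08 to 9.39, 9.28 and 9.42, a change of −0.63 (adjusted p = 0.0261), while GMNN changed by −1.69. The named clusters on both sides of it span 846 kb, with 21 RefSeq genes between them. TC12000365.hg.1 stands by number before the alpha-tubulin gene TUBA1C, which changed by −0.42, in a span of 296 kb with 12 RefSeq genes between. TC12000365.hg.1 went from 13.64, 13.22 and 13.03 to 12.35, 12.24 and 12.14, a change of −1.06 (adjusted p = 0.0255). The groups did not overlap in either cluster. TC02001753.hg.1 fell by 0.48, and its neighbour by number, the splicing factor gene SRSF7, fell by 0.54. The span there was 684 kb, with 15 RefSeq genes between.

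A further pair moved against a called neighbour. TC09000210.hg.1 rose by 0.38, from 8.71, 8.84 and 8.81 to 9.12, 9.13 and 9.25 (adjusted p = 0.0490). Its neighbour by number, the mitotic kinase gene MELK, changed by −1.75, in a span of 785 kb with 9 RefSeq genes between. TC12000542.hg.1 fell, in a span of 15.4 kb, next by number to TSPAN31, a tetraspanin gene that rose by 0.73. Its levels were 11.13, 10.71 and 10.95 in the DMSO arrays and 9.92, 9.55 and 9.87 after PD 0332991, a 2.22-fold fall (adjusted p = 0.0128). The groups of both clusters were apart.

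Some genes between the named neighbours of members are tRNA genes, counted here on either strand. RNA polymerase III transcribes tRNA genes into the adaptors of translation, and they exist in many near-identical copies. RefSeq places 443 nuclear tRNA genes on the assembly used, 98 of them on chromosome 1 and 155 on chromosome 6. In 213 members, at least 1 tRNA gene lay between the named clusters on both sides, a grouping made after the values had been seen. None of these members is thereby shown to be a tRNA. Their median change was −0.12, and 74.2% of them were below 0, against a median of −0.01 and 54.1% below 0 in the 1278 members of other intervals. Of the 213, 10 fell and none rose (4.69% called), and of the 1278, 30 fell and 17 rose (3.68%). On chromosome 1, 60 members in tRNA intervals had a median change of −0.23, and on chromosome 6, 67 had −0.11.

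The arrays did not separate the groups for these 213 members. Their median, measured from each cluster's DMSO mean, was 0.06, −0.14 and 0.05 on the DMSO arrays and 0.01, −0.10 and −0.26 on the PD 0332991 arrays. DMSO replicate 2 was below PD 0332991 replicates 1 and 2, and PD 0332991 replicate 3 was the lowest. For the 60 of the 213 members on chromosome 1, the groups did not overlap in this measure. Their medians were 0.06, −0.04 and −0.01 on the DMSO arrays and −0.08, −0.12 and −0.43 on the PD 0332991 arrays. These 60 held 38 distinct profiles, and chromosome 1 was picked after its values were seen. The groups overlapped for the 67 members on chromosome 6 and for the 86 on the other chromosomes. Without PD 0332991 replicate 3 the median change was −0.05 in the tRNA intervals and 0.04 in the other intervals, and none of the 213 was called. The difference between the medians of both sets was −0.11 with all arrays, −0.18 without DMSO replicate 2 and −0.05 without DMSO replicate 3.

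**Figure D3:**
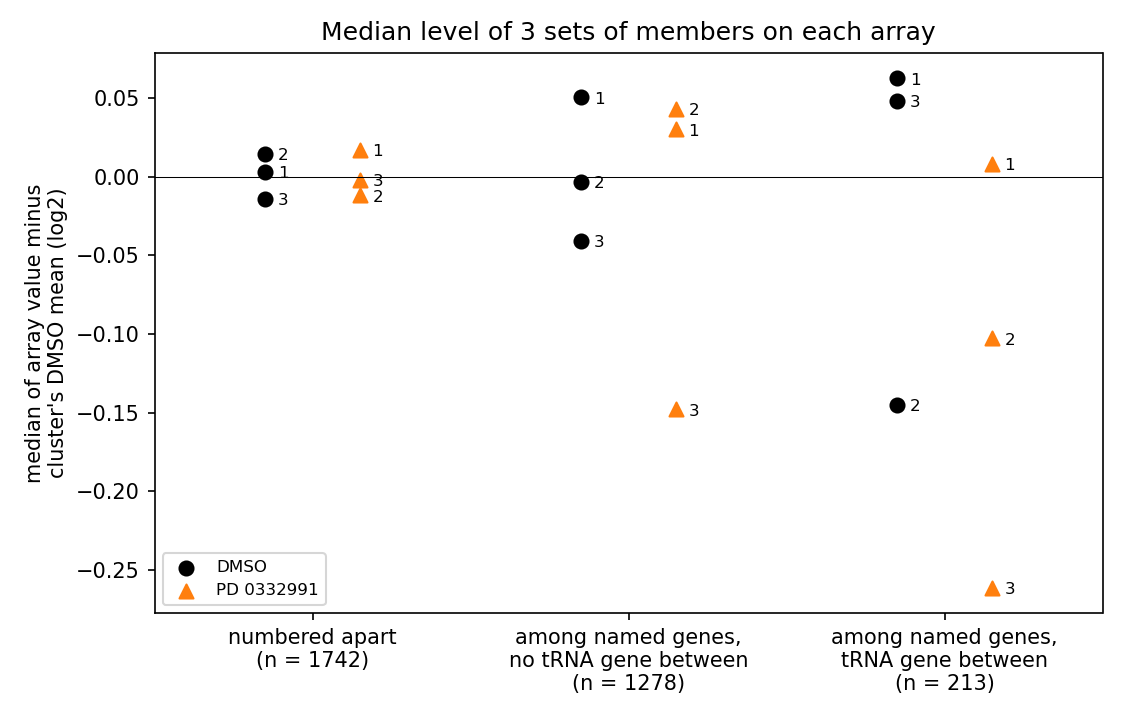
Median of the array value minus the cluster's DMSO mean (log2) over 3 sets of members, by array, with DMSO arrays as black circles and PD 0332991 arrays as orange triangles labelled by replicate. The members numbered apart stay near 0 on every array, while those among named genes are lowest on PD 0332991 replicate 3, at −0.26 for the set with a tRNA gene between and −0.15 for the set without.

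Repeated values were common. A total of 413 members had the same value as another cluster on all 6 arrays, in 92 groups, of which 41 were pairs and 48 lay on a single chromosome. The 3586 members thus held 3265 distinct profiles, and a group of identical clusters is 1 measurement. The members in the separately numbered blocks were all distinct from each other. Counted once, 254 profiles were called, 159 lower and 95 higher. Of the identical members whose interval was known, 37.1% of 313 lay in tRNA intervals, against 8.23% of 1178 members with values of their own.

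Called groups of identical members were 3 in number, all lower, and their members are named after their values were seen. The group of TC01001389.hg.1 held 7 clusters on chromosomes 1 and 6, all of them in tRNA intervals. Its levels were 8.66, 8.59 and 8.61 in the DMSO arrays and 8.20, 8.28 and 8.17 after PD 0332991, 1.33-fold lower (adjusted p = 0.0230). The pair of TC16000486.hg.1 on chromosome 16, also in a tRNA interval, went from 8.61, 8.60 and 8.62 to 8.24, 8.27 and 8.16, 1.31-fold lower (adjusted p = 0.0243). The pair of TC17000231.hg.1 on chromosome 17 was far brighter, with 15.27, 15.42 and 15.36 and then 14.92, 14.93 and 14.85, 1.37-fold lower (adjusted p = 0.0227). In all 3 the groups did not overlap. The 10 calls in tRNA intervals came to 3 distinct profiles.

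The largest group, that of TC01001060.hg.1, held 30 clusters on 10 chromosomes. It had 8.17, 8.58 and 8.24 in the DMSO arrays and 7.94, 8.60 and 7.01 after PD 0332991. PD 0332991 replicate 3 was more than 0.9 below every other array and PD 0332991 replicate 2 was above all DMSO arrays, so no direction was shown (adjusted p = 0.701). The group of TC16000232.hg.1 held 11 clusters on chromosome 16, with 13.58, 13.29 and 12.75 and then 12.98, 12.73 and 12.58. Its change of −0.44 did not pass the test (adjusted p = 0.475), with DMSO replicate 3 between the PD 0332991 arrays. The group of TC19000691.hg.1 shared its values with clusters annotated to SNAR-A genes, small noncoding RNA genes that lie in repeats on chromosome 19. It had 9.22, 9.01 and 8.44 and then 9.05, 8.90 and 8.82, with overlapping groups.

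The brightest members were at the top of the scale. TC01002863.hg.1, TC02000740.hg.1, TC04000491.hg.1, TC04001102.hg.1 and TC07001932.hg.1 all had 19.90, 19.93 and 19.93 in the DMSO arrays and 19.91, 19.88 and 19.90 after PD 0332991. The cluster of RN7SL1, the RNA of the signal recognition particle that guides proteins to the endoplasmic reticulum, had the same values. A total of 31 members, 14 of them mitochondrial, were within 0.5 of the highest value on every array, and none of these was called. At the top of the scale a change in either direction may go unmeasured, so these values give no account of a response.

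All 22 clusters of the mitochondrial genome in the table were unnamed and bright, with a median DMSO mean of 19.91. The mitochondrial genome encodes subunits of the respiratory chain with the rRNAs and tRNAs to make them, and its transcripts are abundant in most cells. None of the 22 was called, the lowest adjusted p being 0.302, and in none were the groups apart. Some not counted at the top were still close to it, such as TC0M000002.hg.1 with a DMSO mean of 19.58, and had little room to rise. Those well below the top could show a change in either direction. TC0M000008.hg.1 had 15.49, 15.27 and 15.18 in the DMSO arrays and 15.46, 15.44 and 15.32 after PD 0332991. TC0M000019.hg.1 had 17.18, 16.98 and 16.10, with DMSO replicate 3 low, and 17.23, 17.19 and 16.85, a difference of 0.34 with an adjusted p of 0.722.

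The nuclear members came from every chromosome of the table. The share of a chromosome's unnamed clusters that were bright was highest on chromosome 16, with 159 of 1098 (14.5%), then on chromosome 19 (12.8%), chromosome 17 (12.6%) and the X chromosome (11.8%). It was 4.60% on chromosome 13 (51 of 1108) and 4.43% on the Y chromosome (9 of 203). Chromosome 1 held the most members, 380. The table ends within chromosome 22, whose 40 members are therefore not a full count.

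The counts of calls in each direction varied by chromosome. Over all chromosomes, 7.31% of the members and 2.26% of all clusters were called, and falls were 63.7% and 63.1% of these calls. Calls were made on 23 chromosomes. On chromosome 1, 26 members fell and 7 rose, and on chromosome 2, 20 fell and 6 rose. Chromosome 9 went the other way, with 3 falls and 14 rises and a median change of 0.05. Chromosomes 6 and 16 had 9 falls each and no rise. These counts take identical clusters separately. Of the falls on chromosome 1, 6 were copies of 1 profile, that of TC01001389.hg.1. The called identical pairs of chromosomes 16 and 17 each gave 2 falls there. On chromosome 15, 3 of 218 members were called (1.38%), and on chromosome 13, 10 of 51 (19.6%). Differences between chromosomes were not tested, since members on a chromosome share repeats and neighbours. Calls over all clusters were not counted by chromosome, so whether these counts are particular to the members is not known.

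These splits changed when PD 0332991 replicate 3 was left out. Falls and rises were then 12 and 3 on chromosome 1, 3 and 5 on chromosome 9, 5 and 1 on chromosome 6 and 4 and 0 on chromosome 16. The median change on chromosome 16 was −0.11 with all arrays and −0.10 without that array. Its members had medians of 0.03, −0.02 and −0.03 on the DMSO arrays and −0.09, −0.12 and −0.19 on the PD 0332991 arrays, measured from the DMSO mean of each. The groups did not overlap in this measure, but chromosome 16 was picked after its values were seen. They were also apart on chromosome 18, with 0.03, −0.01 and −0.03 on the DMSO arrays and −0.06, −0.04 and −0.16 on the PD 0332991 arrays. The 81 members of chromosome 16 that stand among named genes had a median change of −0.25, and counting identical clusters once gave −0.13.

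**Figure D4:**
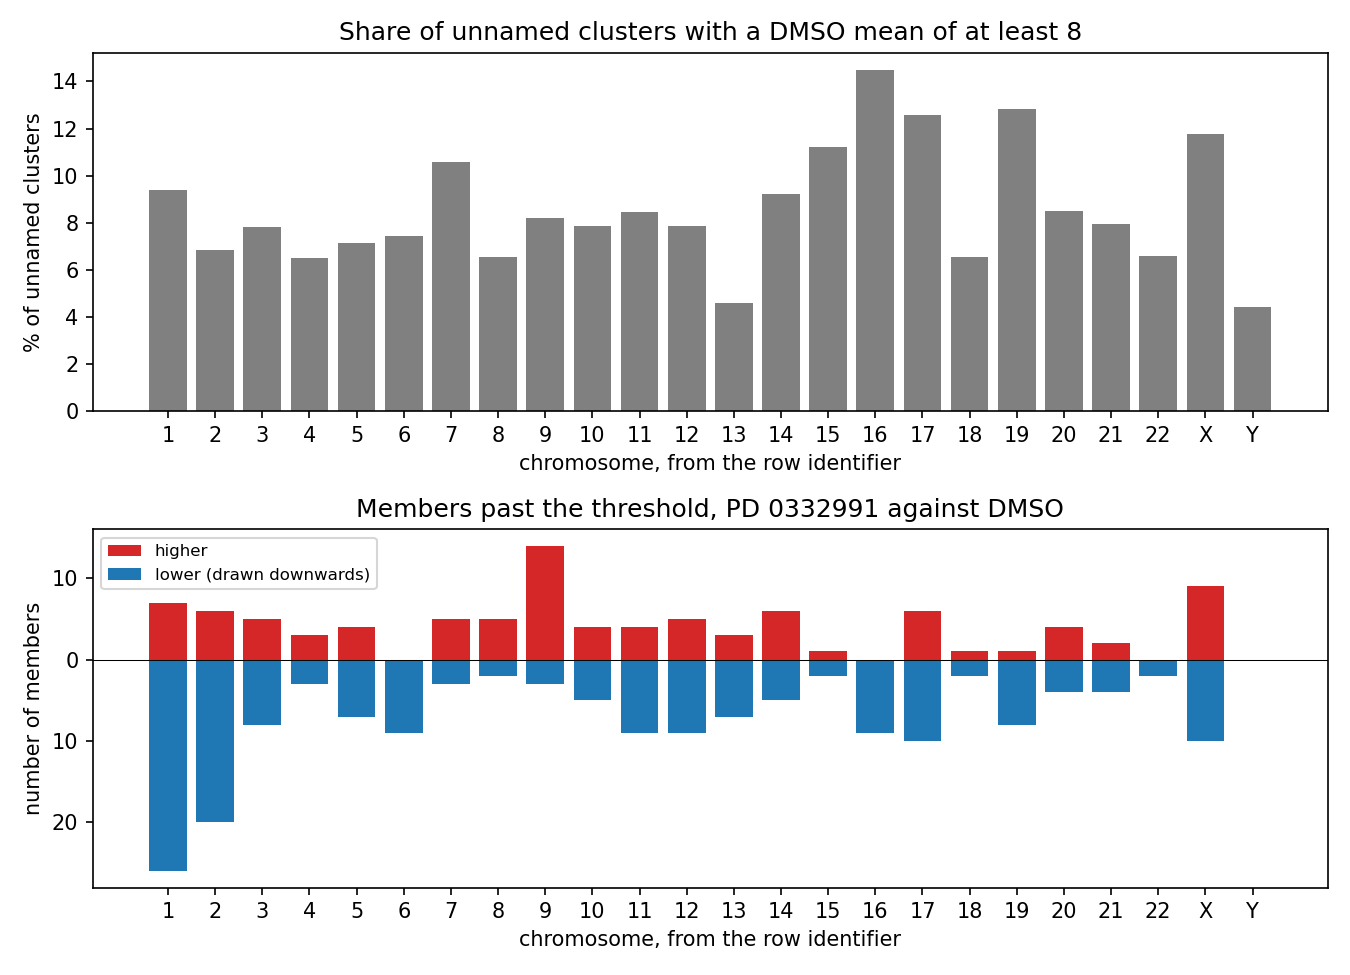
Share of each chromosome's unnamed clusters with a DMSO mean of at least 8 (top, %), and the number of members called higher (red, upwards) or lower (blue, downwards) after PD 0332991 (bottom). Chromosome 16 has the highest share (14.5%), and chromosome 9 is the one with the most rises (14) while chromosome 1 has the most falls (26). Clusters with identical values are counted separately.

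The members with the widest spread within a group show how far arrays of 1 group can lie apart in a bright unnamed cluster. TC20001679.hg.1 had 14.47, 14.50 and 10.69 in the DMSO arrays and 14.38, 14.44 and 14.48 after PD 0332991. DMSO replicate 3 alone was low, and the difference of 1.21 had an adjusted p of 0.714. TC06003702.hg.1 had 9.90, 9.67 and 10.33 and then 10.34, 11.997 and 7.82. TC10002567.hg.1 had 12.76, 12.67 and 13.43 and then 13.80, 15.06 and 11.39. In these last clusters PD 0332991 replicate 2 was the highest and replicate 3 the lowest of all 6 arrays, and neither passed the test.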

How the data were processed

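Total RNA of PC3-ML cells was measured on 6 Affymetrix human transcriptome arrays. The labels name both a NuGEN amplification system and an Affymetrix kit (WT Plus) for target preparation. The table that the authors deposited holds a single value for each cluster on each array, taken as log2 from the range of the values. The tool was Affymetrix Expression Console, per the submitters' processing notes. The sources used here do not give its version, the background correction, the normalization or the genome build.

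The values were used as deposited. All 65535 clusters were fitted with limma 3.58.1 in R 4.3.3 (a mean per group, lmFit and eBayes, two-sided, checked on simulated data), with Benjamini-Hochberg adjustment over all of them and a threshold of 0.05. Symbols came from the array's annotation, under which 22685 clusters had 1 symbol and 1385 several. The members, the lists and the groupings were chosen with earlier results of these data known. Clusters named are the 12 largest falls and 12 largest rises among called members without overlap, the 5 brightest, the 3 on each side of the level and the 3 widest in spread. Others were chosen after their values were seen. Gene order and neighbouring genes came from RefSeq (assembly GRCh38.p14), with no coordinates printed. Alternatives were quantile normalization, median centring, a filter, a trended variance, a replicate block, other levels and leaving out each array. Counting identical clusters once, leaving out the top of the scale and the tRNA grouping with its alternatives were added after seeing the data. The number of arrays limits the precision.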

Additional observations from a re-analysis of the deposited data

How the results depend on the processing

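With all arrays 262 members were called (167 lower, 95 higher). With 1 array left out, and members chosen anew where it was a DMSO array, 93 to 135 were called, 63 to 93 lower and 30 to 42 higher, and 92 to 126 of these were among the 262. Testing only clusters with a mean of at least 5, which adjusts over fewer clusters, gave 462 (273 lower, 189 higher), all 262 among them. Over all clusters the values showed no pairing of arrays by replicate number. Deviations of same-numbered arrays correlated at −0.0041, −0.0233 and 0.0229, and those of other pairs lay between −0.0459 and 0.0511. The bright members were not checked apart, so a pairing in them cannot be judged from this. With the number as a replicate block there were 64 calls, 50 lower and 14 higher. Other normalization (quantile 261, centred 237), a variance trend (339), and members chosen by all 6 arrays (261) or by the PD 0332991 arrays (252) kept the count within 1.5 times and falls ahead of rises. The members' median change was between −0.04 (arrays centred on their medians) and 0.03 (quantile normalization) under the alternatives run. The 24 named falls and rises kept their direction in every alternative, and the 12 falls kept their calls. In the fit with the replicate block, 5 rises had an adjusted p of up to 0.0912, and with an array left out 5 rises lost their call at least once. The cause of these differences was not tested. Values at the top of the scale limit what the brightest members can show.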
